A study of Daphnia magna with 3 samples.

Results

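The cytochrome P450 (CYP) records of *Daphnia magna*, a planktonic freshwater crustacean, were taken as the records whose deposited description contained "cytochrome P450" or "CYP" followed by a digit, NADPH-cytochrome P450 reductase being left out. This rule found 75 of the 47109 records of the table. One of them, Dapma7bEVm027555co31497NoSplit, was described as a peptidyl-prolyl cis-trans isomerase, a cyclophilin whose name starts with cyp, and not as a P450. It held 267, 246 and 287 counts in replicates 1, 2 and 3 and was kept out of all values below, which leaves 74 P450 records. The heme-binding gene ontology (GO) term was carried by 71 of the 74 P450 records, and the iron-binding term by 71. Descriptions and GO terms were both added with Blast2GO, so the terms are not separate support for the names. Descriptions give the name of the closest homolog that the authors found, so that a family in the text below is the family of that homolog.

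P450 enzymes hold a haem iron at which molecular oxygen is split, and insert 1 oxygen atom into fatty acids, steroids, hormones or foreign compounds. Those of the endoplasmic reticulum take electrons from NADPH-cytochrome P450 reductase, and those of the mitochondrion from adrenodoxin. In arthropods, single-copy members make and break down the moulting hormone 20-hydroxyecdysone, while large families such as CYP4 and CYP6, which expand by tandem duplication, include enzymes that clear insecticides and plant toxins.

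The data came from whole bodies of wild-type females of the NIES strain in 1 group of 3 libraries. Each library was made from a pool of 5 females 12 days old, at the release of clutch 2, with the eggs flushed out of the brood chamber. The study used them as its well-fed wild type, and starved animals and the mutant of that study were not analysed here, so no contrast between groups was possible. By the methods of the study sampling was done in triplicate, and these libraries were prepared and sequenced separately from its others. Pool and preparation cannot be told apart in the spread between libraries. In whole-body RNA, fewer cells of a type and less RNA per cell cannot be told apart.

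The libraries held 8843488, 8679171 and 9092389 counts in gene records, and a record without counts could have reached 0.354, 0.353 and 0.309 CPM (counts scaled to a common library size) in replicates 1, 2 and 3 at a limit of 3 counts, which covers counting error only. Levels between records are given below in TPM (length-corrected transcript abundance with the same sum in each library), and differences between libraries in CPM, for which TMM (trimmed mean of M-values) sizes were used. The 74 records stood for 64 gene models, 21 of them being parts of split models, and merged into 54 loci on 22 scaffolds and 9 contigs. Another record overlapped 54 of the 74 (73.0%), against 74.0% of all records. Of the 15 most abundant P450 records 12 overlapped another record, 9 of them on the same strand. How reads were divided among overlapping or near-identical records is not given in the sources used here, and levels of such single records are uncertain. Yolk precursor records also differed between libraries, with 575047, 695746 and 408475 counts over 24 vitellogenin records, of which 21 had counts in every library. Their part in the P450 values was not tested.

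Most P450 records were transcribed in these adults, many of them at low level. Of 74 P450 records, 48 (64.9%) had counts in all 3 libraries, 9 in some of them, and 17 (23.0%) had none. Over all 47109 records 42.3% were detected in every library and 38.9% were silent, and over the 17265 records with a description 65.5% and 24.05%, so that P450 records were detected about as often as described records in general. Replicates 1, 2 and 3 detected 50, 52 and 55 P450 records. A mean of at least 1 TPM was reached by 38 records (51.4%, against 59.0% of described records), at least 10 TPM by 17 (23.0%, against 34.4%), and at least 100 TPM by 2. The median level of the 48 records was 4.45 TPM, against 6.25 TPM over all records and 10.9 TPM over described records detected in every library. The 15 families named by the descriptions were all represented among the records detected in every library.

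**Figure D1:**
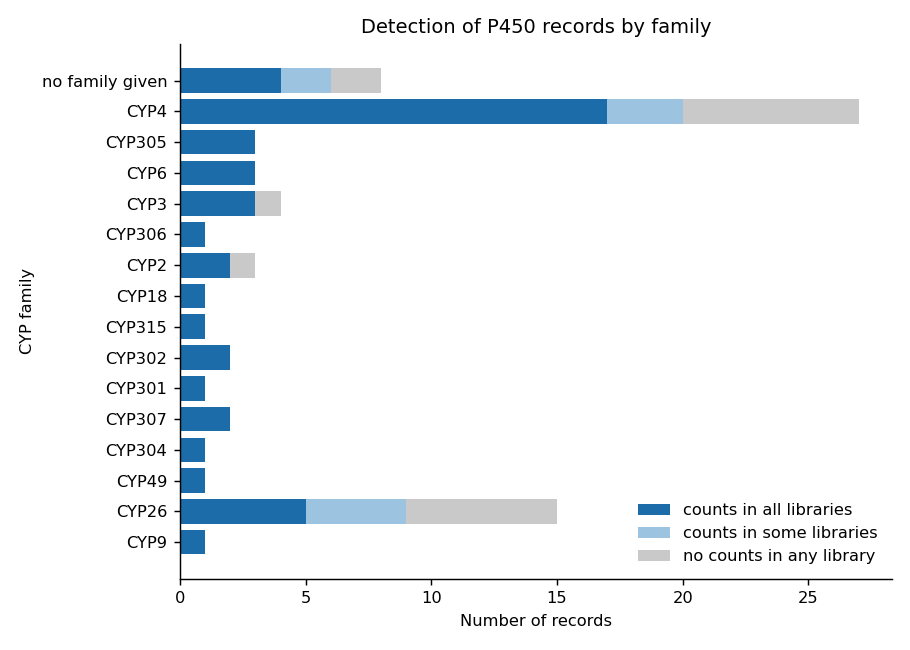
Number of P450 records (x axis) in each CYP family (y axis, ordered by summed TPM), split into those with counts in all 3 libraries, in some, and in none. CYP4 with 27 and CYP26 with 15 records were the most numerous, and held 7 and 6 of the 17 silent records.

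The P450 records took 0.115% of the gene counts in replicate 1 (95% Wilson interval 0.113 to 0.118%), 0.118% in replicate 2 (0.115 to 0.120%) and 0.135% in replicate 3 (0.133 to 0.138%). On the CPM scale their sums were 1206, 1202 and 1267. Replicate 3 was the highest on both scales, and its interval for the share did not meet those of the others. Gut enzyme records, 110 of 166 of them detected in all libraries, held 147244, 153704 and 175560 counts in replicates 1, 2 and 3. Haemoglobin records, 13 of 27 in all libraries, held 134016, 136409 and 181263. Both lists had most counts in replicate 3, but these counts were not scaled to library size. Other lists did not. Muscle records, 11 of 16 in all libraries, held 50219, 46431 and 37298 counts. Opsin records, 34 of 61 in all libraries, held 8154, 9704 and 9328, and the yolk records above were lowest in replicate 3. The median difference of a library from the mean of the others was also taken on a log CPM scale. For gut records it was -0.125, 0.061 and 0.043 in replicates 1, 2 and 3, not highest in replicate 3. For haemoglobin records it was 0.142, -0.382 and 0.354, highest in replicate 3. For muscle records it was -0.141, 0.160 and -0.242, and for opsin records -0.166, 0.121 and 0.027, neither highest in replicate 3. The part of these lists in the P450 share was not tested. In TPM the records summed to 765 ± 49.3 (SD, n = 3). A pair of records made 44.9 ± 2.83% of this sum, 5 made 59.6 ± 3.47% and 15 made 84.8 ± 1.23%.

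**Figure D2:**
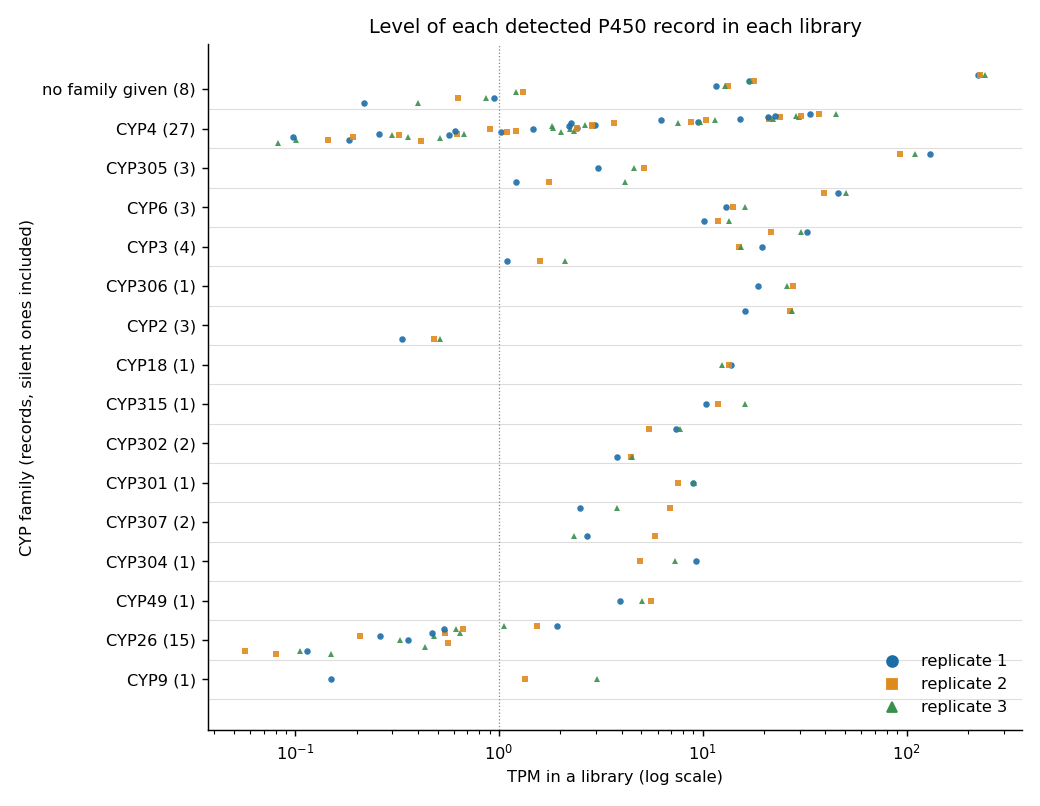
TPM of each detected P450 record in each library (x axis, log scale, one marker shape per replicate) by CYP family (y axis, with the number of records). Only 2 records had a mean over 100 TPM, one without a family name and one of CYP305, while the CYP26 records stayed at or below 1.51 TPM on average.

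The most abundant P450 record carried no family name. Dapma7bEVm000321sc01581NoSplit, described only as cytochrome P450, lies on scaffold01581 at 2052090 to 2054913 on the minus strand and had 223, 229 and 244 TPM in replicates 1, 2 and 3. It held 30.4 ± 0.639% of the P450 TPM and ranked 633 among all records. It had 351, 361 and 365 CPM, a spread of 1.04-fold that was the smallest among the 21 P450 records averaging 10 CPM or more. A record without description overlapped it by 79 bp on the opposite strand and had 50, 71 and 100 counts. Its level was above that of the next member in each library, by 1.08 ± 0.27 on the log2 TPM scale (SD, n = 3). The other 7 records without a family name were far lower. A pair of them called "cytochrome P450, putative" had 17.2 ± 0.531 TPM (Dapma7bEVm003702sc03376NoSplit) and 12.6 ± 0.904 TPM (Dapma7bEVm001463sc00930NoSplit), and the 5 called "Cytochrome p450-like protein" did not reach 1 TPM. A record described as cytidine deaminase-like lay on the opposite strand across the whole of the first of this pair and had 19.5 TPM.

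Second came a CYP305 record, of the CYP2 clan, the P450 branch that in arthropods also holds the hormone enzymes of the endoplasmic reticulum. Dapma7bEVm002310sc02452NoSplit, described as 305a1, had 130, 92.9 and 111 TPM in replicates 1, 2 and 3, and overlapped no other record. In CPM it had 240, 172 and 195, highest in replicate 1, and this variation exceeded counting noise. Another 305a1 model on the same scaffold, split into a pair of records, had 4.27 ± 1.10 TPM (Dapma7bEVm011234sc02452Split01) and 2.38 ± 1.57 TPM (Dapma7bEVm011234sc02452Split02), and the abundant record exceeded their sum by 4.11 ± 0.71 on the log2 scale (SD, n = 3). One split part lay wholly and the other partly inside a longer record for an S1 RNA-binding domain protein on the same strand. CYP304, a related family, had 1 record on that scaffold, Dapma7bEVm003229sc02452NoSplit, with 9.31, 4.92 and 7.27 TPM. Its CPM of 15.1, 8.0 and 11.2 gave the widest spread among P450 records averaging 10 CPM or more, at 1.89-fold between the highest and the lowest library. The CYP2 family itself, whose human member CYP2J2 turns arachidonic acid into epoxides, had 3 records called 2J2-like. Dapma7bEVm001520sc00848NoSplit had 16.2, 26.8 and 27.5 TPM, lowest in replicate 1. The other 2, overlapping each other on scaffold00007, were at 0.442 ± 0.0945 TPM and at 0.

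CYP4 was the largest family, with 27 records in 16 loci, of which 17 were detected in all libraries, 3 in some and 7 in none. CYP4 enzymes hydroxylate fatty acids at the chain end in mammals and include hormone- and toxin-responsive members in insects. The family summed to 122, 149 and 169 TPM in replicates 1, 2 and 3, or 147 ± 23.6 TPM, and to 1716, 2080 and 2535 counts. Replicate 1 was thus the lowest of the libraries for CYP4 and replicate 3 the highest. The 10 records called 4aa1 fell in 2 loci and summed to 53.3 ± 9.87 TPM, of which Dapma7bEVm015016sc01361NoSplit made 38.7 ± 5.87 TPM (33.6, 37.3 and 45.1 TPM in replicates 1, 2 and 3). Dapma7bEVm014983sc01361NoSplit, in the same locus, had 6.23, 10.3 and 11.5 TPM, and its CPM of 9.57, 15.9 and 16.8 put replicate 1 more than 1.5-fold below both others. The remaining 8 records called 4aa1 were at or below 2.30 TPM. Most of them overlap each other, so how the reads of this locus fell to single records is uncertain.

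The 4d group, named after *Drosophila* genes, had 8 records in 8 loci and summed to 47.9 ± 5.63 TPM. Its leading member Dapma7bEVm000715sc00930NoSplit, called 4d20, had 22.6, 30.4 and 28.6 TPM and overlapped no record. It exceeded the next 4d20 record, Dapma7bEVm000551sc00930NoSplit at 9.28 ± 0.513 TPM, by 1.54 ± 0.27 on the log2 scale (SD, n = 3), in each of the 3 libraries. A fragment called 4d14, Dapma7bEVm003214sc01361NoSplit, had 11, 18 and 40 counts in replicates 1, 2 and 3, and the other record of that name was silent. The remaining 4d20 records lay between 0.396 and 2.83 TPM. Of 7 records of the 4C type, a group that in cockroach includes a hormone-inducible enzyme of the fat body, a single one exceeded 1 TPM. This was Dapma7bEVm002285sc01361NoSplit, called 4c3, with 20.9, 23.9 and 29.7 TPM. Dapma7bEVm001491sc00725NoSplit, called 4B1, had 15.2, 21.2 and 22.2 TPM, again lowest in replicate 1. Dapma7bEVm023119sc00687NoSplit, called 4V2 after a human fatty acid hydroxylase of the eye, had 1, 2 and 4 counts.

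The CYP3 clan, here the families CYP3, CYP6 and CYP9, holds the main drug-metabolising enzymes of the mammalian liver and many insecticide-clearing enzymes of insects. Its 8 records summed to 120 ± 13.2 TPM. All 3 CYP6 records were called 6a18 and lay next to each other on scaffold01361. They and the CYP9 record below lay wholly inside a sodium/potassium-transporting ATPase alpha record on the opposite strand (Dapma7bEVm015102sc01361Split01, 30.9 TPM). A record without description on the same strand, at 2.57 TPM, also spanned them. The levels of this group are uncertain to that extent. The middle 6a18 record, Dapma7bEVm018634sc01361NoSplit, had 45.9, 39.5 and 50.7 TPM and was the third most abundant P450 record. Its neighbours Dapma7bEVm011226sc01361NoSplit and Dapma7bEVm002296sc01361NoSplit had 14.4 ± 1.62 and 11.9 ± 1.64 TPM, lower by 1.66 ± 0.17 and 1.94 ± 0.22 on the log2 scale (SD, n = 3), in every library. The CYP9 family had 1 record, Dapma7bEVm008738sc01361NoSplit, called 9e2-like, with 1, 9 and 22 counts in replicates 1, 2 and 3. These 3 libraries thus gave it 0.118, 1.06 and 2.27 CPM, the first of them under the limit that 3 counts set. A pair of records called 3A8-like, Dapma7bEVm028353sc02227Split02 with 28.1 ± 5.72 TPM and Dapma7bEVm009653sc02227NoSplit with 16.7 ± 2.52 TPM, covered 2340 bp in common on the same strand and cannot be read as separate genes. Both were highest in replicate 1, with 49.8, 33.3 and 44.3 CPM for the first and 34.0, 26.2 and 25.5 CPM for the other. The remaining CYP3 record with counts, called 3A9, had 1.60 ± 0.513 TPM.

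The 7 records given the CYP number of an ecdysteroid enzyme were detected in every library. In insects the moulting hormone is made from cholesterol by the enzymes of the Halloween genes, spook (CYP307A1), phantom (CYP306A1), disembodied (CYP302A1) and shadow (CYP315A1), with shade (CYP314A1) as the last step, and CYP18A1 inactivates it. No record was described as CYP314 or CYP15. The median over the 7 records of these families was 6.85 TPM. CYP306A1 (Dapma7bEVm001479sc00568NoSplit) was the most abundant of the 7 with 18.6, 27.6 and 25.8 TPM in replicates 1, 2 and 3. CYP18A1 (Dapma7bEVm003686sc00568NoSplit) had 13.8, 13.4 and 12.4 TPM and CYP315A1 (Dapma7bEVm004713sc00687NoSplit) 10.4, 11.9 and 16.1 TPM. The lowest CYP306A1 library thus lay above every library of the others among the 7 records, whereas CYP18A1 and CYP315A1 overlapped. Hormone enzymes described by function, given in the closing section, are not part of this ranking. Among them 1 methyl farnesoate epoxidase record exceeded the CYP306A1 level, at 73.8 ± 10.6 TPM. The ecdysone 20-monooxygenase record with counts lay below CYP306A1 in each library, at 17.1, 19.8 and 24.9 TPM in replicates 1, 2 and 3.

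The records of CYP302A1 and CYP307A1 were fragments of split models. The parts of CYP302A1, Dapma7bEVm001506sc01863Split01 and Dapma7bEVm001506sc01863Split02, lay next to each other and had 6.85 ± 1.23 and 4.23 ± 0.391 TPM. Those of CYP307A1, Dapma7bEVm010925sc02011Split02 and Dapma7bEVm010925sc01592Split01, lay on separate scaffolds and had 4.41 ± 2.28 and 3.64 ± 1.94 TPM. Both CYP307A1 parts stood highest in replicate 2. They had 2.72, 7.53 and 3.92 CPM and 2.01, 4.36 and 1.65 CPM in replicates 1, 2 and 3, and both varied beyond counting noise. The CYP302A1 parts did not pass that test. CYP306A1, with 34.3, 51.0 and 45.2 CPM, and CYP315A1, with 15.1, 17.4 and 22.3 CPM, were lowest in replicate 1 and passed it, and CYP18A1, with 25.9, 25.2 and 22.1 CPM, did not (adjusted p = 0.279 in the chi-square test). In log2 TPM, CYP306A1 exceeded its neighbour CYP18A1 by 0.43, 1.04 and 1.06 in replicates 1, 2 and 3.

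**Figure D3:**
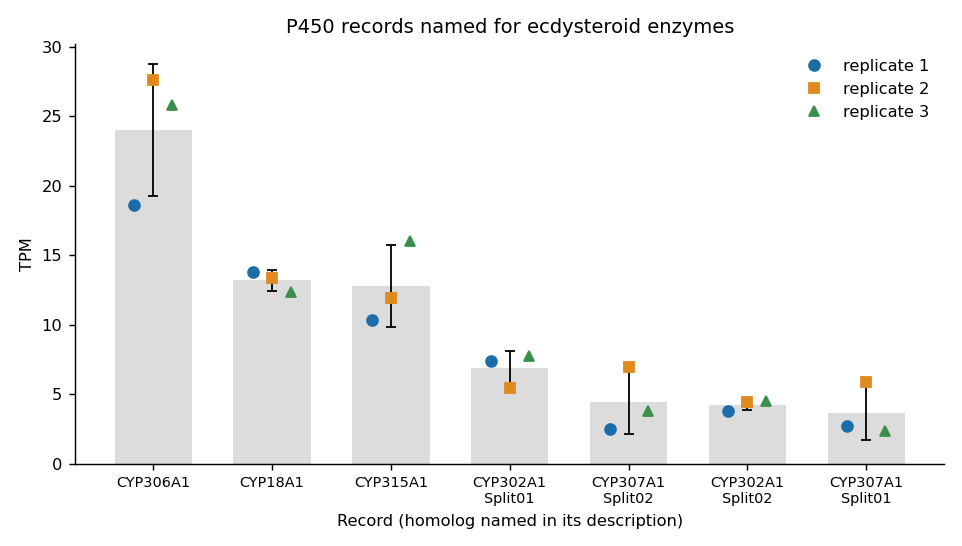
TPM (y axis) of the 7 records named for ecdysteroid enzymes (x axis). Bars give the mean and error bars the SD over 3 libraries, and markers the single libraries. CYP306A1 had the highest mean, 24 TPM, and both CYP307A1 parts were highest in replicate 2.

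The response genes of the hormone were taken as a list of 14 records described as ecdysone receptor or as nuclear receptors and ETS factors of its response cascade. Of these 13 were tested and 12 (92.3%) varied beyond counting noise, against 54.5% of all records tested. The 13 include parts of split models (FTZ-F1, FTZ-F1 beta and HR3) and overlapping records (HR3 and E74). They are thus not 13 separate genes, and the share is not one of independent genes. The nuclear receptor HR3 (Dapma7bEVm009766sc00930Split01) had 1.30, 8.24 and 3.20 CPM in replicates 1, 2 and 3, and E78C (Dapma7bEVm004624sc02190NoSplit) had 0, 54 and 23 counts, highest in replicate 2 like CYP307A1. FTZ-F1 (Dapma7bEVm011018sc03025Split02), a receptor of the later prepupal phase in *Drosophila*, had 53.5, 36.1 and 28.4 CPM, and the ecdysone receptor (Dapma7bEVm015282sc00494NoSplit) 36.3, 22.0 and 23.1 CPM, both highest in replicate 1. Their part in the P450 values was not tested. No record was matched to neverland or to ultraspiracle by its description.

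The mitochondrial clan had 5 records of 4 families, all at 1 TPM or more, and summed to 37.2 ± 4.43 TPM. Beside CYP302A1 and CYP315A1 these were CYP301A1 (Dapma7bEVm014955sc02190NoSplit), needed for adult cuticle formation in *Drosophila*, with 8.92, 7.58 and 9.03 TPM, and CYP49A1 (Dapma7bEVm003191sc01764NoSplit) with 3.92, 5.58 and 5.01 TPM. Neither varied beyond counting noise. Among the electron donors of the P450 enzymes, 2 of 11 records tested (18.2%) varied beyond counting noise, against 54.5% of all records tested. NADPH-cytochrome P450 reductase (Dapma7bEVm010043sc00008NoSplit) had 147, 152 and 145 CPM and 62.9 ± 1.26 TPM. This was more than any of the 74 P450 records other than the leading pair. Cytochrome b5 (Dapma7bEVm011592sc02385Split02), a second electron donor, had 120 ± 13.0 TPM. For the mitochondrial enzymes, the records called adrenodoxin and adrenodoxin-like had 14.4 ± 2.52 and 14.1 ± 3.20 TPM, and the 2 records of adrenodoxin oxidoreductase 25.7 ± 3.69 and 11.5 ± 1.01 TPM. The oxidoreductase records overlapped each other on opposite strands, so their separate levels are uncertain. Both are among the 11 tested.

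CYP26 was the family with the most records after CYP4 and held 0.485% of the P450 TPM. CYP26 enzymes degrade retinoic acid in vertebrates. All 15 records were called 26C1 and fell in 12 loci, of which 5 records were detected in all libraries, 4 in some and 6 in none. Together they had 23, 30 and 33 counts in replicates 1, 2 and 3 and 3.71 ± 0.0893 TPM. Only Dapma7bEVm028079co34084Split02, a fragment on a contig with 5, 4 and 3 counts, exceeded 1 TPM, at 1.51 ± 0.434. None reached the mean count of 10 needed for the test of variation. Dapma7bEVm004158sc01361NoSplit had 0, 8 and 0 counts. Of the other 11 silent records 7 were of CYP4, 1 each of CYP2 and CYP3, and 2 had no family name. Silent records spanned a median of 998 bp on their scaffold, against 2525 bp for those of at least 1 TPM, and 9 of the 17 overlapped another P450 record, against 12 of 38. Among 12 P450 records on short contigs 6 were silent and 1 reached 1 TPM.

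Some P450 loci stood close together, and position was not used by the rule. Scaffold01361 held 21 of the 74 records. With loci at most 20 kb apart counted as neighbours, 19 of the 54 loci, with 29 records, fell in 6 groups. Of these groups 3 had at least 3 loci. Most loci thus had no P450 neighbour, and the same shares over all records were not computed. The 6a18 group at 1353169 to 1364453 of scaffold01361 had its 3 CYP6 records and the 9e2-like record on 1 strand within 11285 bp, with gaps of 644, 343 and 537 bp, and 1.50 to 45.4 TPM. The CYP4 and CYP26 group at 451237 to 498050 of the same scaffold held 14 records in 5 loci from 0 to 38.7 TPM, 4 of them silent. There the 4c3 record at 24.8 TPM stood between records called 26C1 that were silent or at most at 0.551 TPM. The 4 loci on scaffold00930, all called 4d20 and on the same strand, were at 0.396 to 9.28 TPM, and the more abundant 4d20 record of that scaffold, Dapma7bEVm000715sc00930NoSplit, lay outside the group. CYP306A1 and CYP18A1, which make and inactivate the hormone, lay 1797 bp apart on scaffold00568, on opposite strands with their 3′ ends facing. Neighbours of one name thus differed widely in level.

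**Figure D4:**
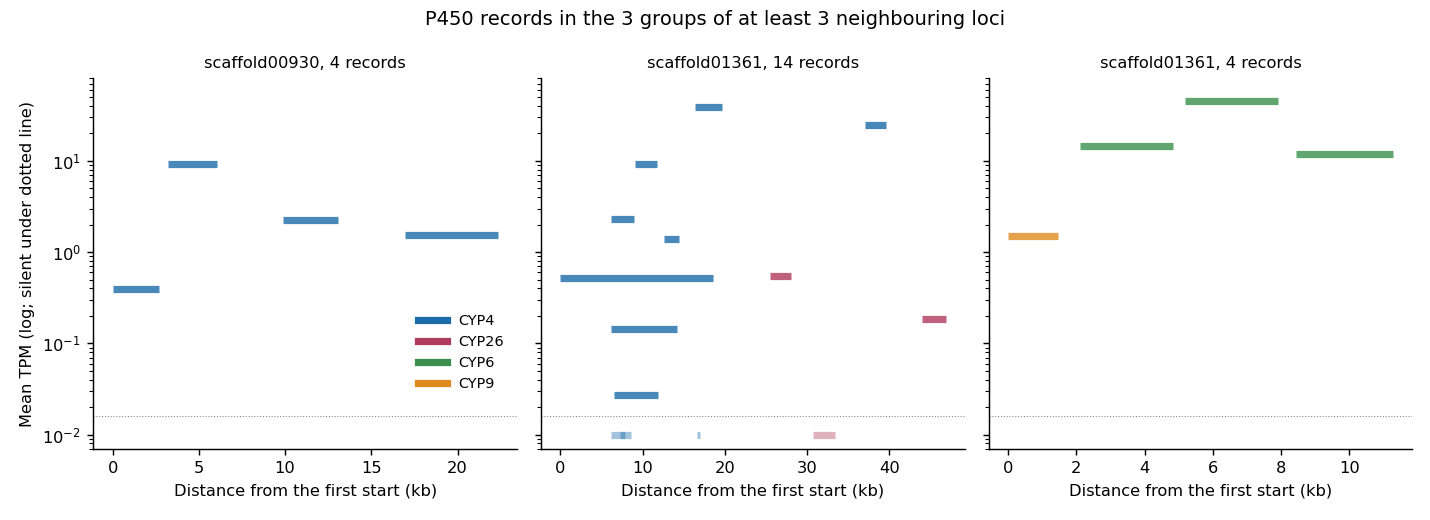
Mean TPM over 3 libraries (y axis, log scale) of each P450 record in the groups of at least 3 neighbouring loci, drawn as a bar from its start to its end (x axis, kb from the first start of the group), coloured by family. Records below the dotted line were silent. In the right-hand group the middle 6a18 record stood at 45.4 TPM between neighbours at 14.4 and 11.9 TPM.

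P450 records varied between the libraries about as much as other records. Counts differed between the 3 libraries beyond counting noise in 20 of the 39 P450 records that averaged 10 counts or more (51.3%), by a chi-square test of homogeneity with Benjamini-Hochberg adjustment over all records, against 54.5% of 15516 records. This share is near the background and is not a result about P450. No P450 record of the 21 that averaged 10 CPM or more had a library 2-fold above or below both others, against 4.19% of 8976 records. At 1.5-fold there were 2, the 2J2-like record and the 4aa1 record Dapma7bEVm014983sc01361NoSplit, both lower in replicate 1, against 16.9% of all records. With 39 records averaging 1 CPM or more, 4 had a library 2-fold apart, against 12.7% of all records. In the 21 records averaging 10 CPM or more, the highest and lowest libraries differed by a median of 1.34-fold, which is also the median of 8955 other records. The largest spreads among the 21 were those of the 304a1 record, the 4aa1 record Dapma7bEVm014983sc01361NoSplit (1.76-fold), the 2J2-like record (1.66-fold), the 3A8-like record Dapma7bEVm028353sc02227Split02 (1.50-fold) and CYP306A1 (1.49-fold). The median biological coefficient of variation in edgeR was 0.276 over 39 P450 records and 0.263 over all records averaging 1 CPM or more.

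**Figure D5:**
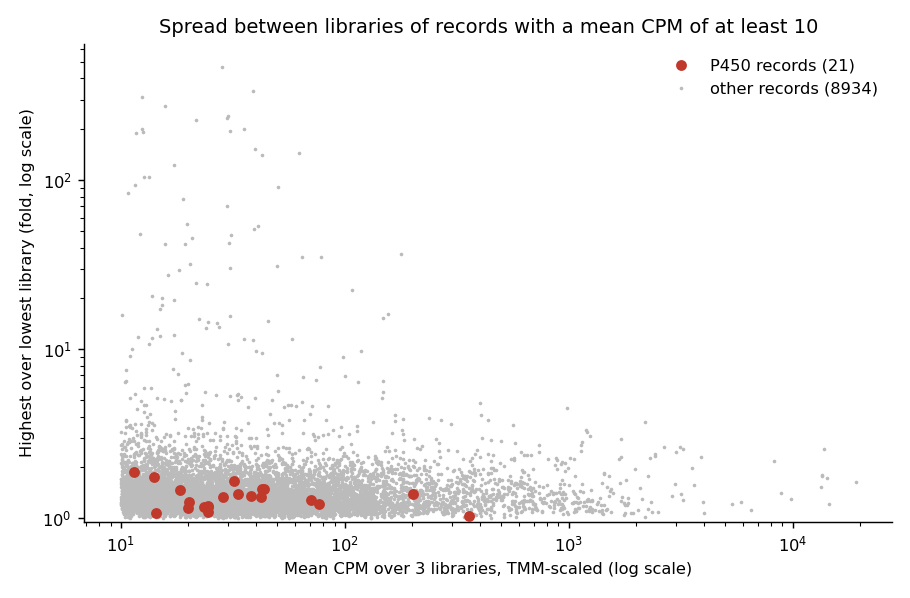
Ratio of the highest to the lowest library (y axis, log scale) against mean CPM (x axis, log scale) for records averaging 10 CPM or more. The 21 P450 records (red) reached 1.89-fold at most, among 8934 other records (grey); 21 other records with a library at 0 could not be drawn.

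Of the 20 records that varied, 13 were lowest in replicate 1 and 10 were highest in replicate 3. The same shares over all records were not computed, so these counts are not a result about P450. The 20 also include overlapping records of 1 locus and parts of 1 split model. The records lowest in replicate 1 included the leading 4aa1, 4d20, 4c3, 4B1, 2J2-like, CYP306A1 and CYP315A1 records, whereas 305a1, 304a1 and both 3A8-like records were highest in it. Over the 48 records detected in every library the median difference of a library from the mean of the others, in log2(CPM + 0.5), was -0.18 in replicate 1, 0.03 in replicate 2 and 0.11 in replicate 3, against 0.00, 0.01 and 0.01 over all records. In replicate 1 the difference was below 0 for 31 of the 48, against 9898 of all 19927 records detected in every library. Without replicate 1, 8 of 39 P450 records tested (20.5%), all of them among the 20, varied beyond counting noise, against 29.0% of all records tested. Among members that overlap no other record the median for replicate 1 was 0.07. Across the 74 records, log2(CPM + 1) of any 2 libraries had a Pearson correlation of 0.986 to 0.989, given as a description of records that share libraries.

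The study clustered annotated genes that differed between its mutant and wild type under starvation, using libraries that included these. Its clusters listed 15 P450 gene models, matched here by number to 16 records. None of the 16 was silent, and 14 were at 1 TPM or more, against 51.4% of all P450 records. The study had kept only genes above a minimum level in at least 1 sample. These counts therefore depend on its filter and are not a result about P450. Cluster D had 10 records from 0.187 to 45.4 TPM, among them the leading 6a18 record, the 2J2-like and 4B1 records and both CYP307A1 parts. The rest of cluster D were the 4aa1 records Dapma7bEVm014983sc01361NoSplit at 9.35 TPM and Dapma7bEVm014984sc01361NoSplit at 2.30 TPM, the 4d20 records Dapma7bEVm000551sc00930NoSplit at 9.28 TPM and Dapma7bEVm000143sc02372NoSplit at 2.83 TPM, and the 26C1 record Dapma7bEVm004158sc01361NoSplit, whose 8 counts all fell in replicate 2. Cluster B had 4, the 4c3 record at 24.8 TPM, CYP18A1, CYP315A1 and a 26C1 record (Dapma7bEVm009688sc01361NoSplit) at 0.551 TPM. Cluster C had the putative P450 record Dapma7bEVm001463sc00930NoSplit at 12.6 TPM, and cluster E the 4d20 record Dapma7bEVm015162sc00930NoSplit at 2.23 TPM. The 2 most abundant P450 records were in no cluster.

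Genes that sense foreign compounds and switch on P450 transcription in other animals were searched by words in the descriptions. Of the 12 records found, 10 were detected in all libraries (83.3%, against 42.3% of all records and 65.5% of described ones). Of 10 tested, 7 varied beyond counting noise, against 54.5% of all records tested. Both shares include a record called aryl hydrocarbon receptor nuclear translocator-like protein 1 (Dapma7bEVm000168sc03242NoSplit). Its name is that of a relative of the receptor's partner and not of a sensor of foreign compounds. The most abundant, a record called HR96-like (Dapma7bEVm006774sc01663NoSplit), after the nuclear receptor that governs xenobiotic responses in *Drosophila*, had 60.5 ± 6.06 TPM. Another record called HR96-like (Dapma7bEVm005219sc00084NoSplit) had 22.6, 39.3 and 33.2 CPM in replicates 1, 2 and 3, lowest in replicate 1. The aryl hydrocarbon receptor (Dapma7bEVm023067sc00611NoSplit) had 18, 12 and 5 counts, or 2.26 ± 1.32 TPM, whereas a record for its partner ARNT (Dapma7bEVm010232sc02251Split02) had 36.3 ± 2.03 TPM. The receptor record, of 690 bp, begins at base 2 of its scaffold and may be incomplete. The cap'n'collar factor (Dapma7bEVm015075sc03164NoSplit), which drives antioxidant and detoxification genes in insects, had 49.8, 55.4 and 36.2 CPM. In the methyl farnesoate pathway, the crustacean counterpart of juvenile hormone, 3 of 4 records were detected in all libraries, against 65.5% of described records, and 2 of 3 tested varied, against 54.5% of all records tested. The juvenile hormone epoxide hydrolase record Dapma7bEVm006245sc03199Split01 had 48.7 ± 6.18 TPM, and the methyltransferase record Dapma7bEVm007308sc00915NoSplit 15, 19 and 12 counts.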

How the data were processed

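RNA sequencing data of 3 wild-type libraries were analysed. In CLC Genomics Workbench 12 the authors aligned reads against the wFleaBase assembly of *D. magna*, and the deposited counts are total counts per gene record, not normalized. Not given in the sources used here are the versions of the assembly and gene models and whether strand was used. The RPKM deposited by the authors were scaled to a library total of which gene records held 80.5%, 80.8% and 82.5%. The deposited TPM had a common sum. A further deposited signal, named CPM, was a scaled count and was not used for results. Descriptions and GO terms were added by the authors with Blast2GO.

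P450 members and all gene lists were chosen with earlier results of these data known. Named records were the 15 with the highest mean TPM, all of the hormone families, the highest of each family, those 2-fold apart and the 5 of widest spread, those in the clusters of the study, and groups of neighbouring loci by range. Records cited as overlapping partners, and the single low records of a family, were named after their values were seen.

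TMM factors and the coefficient of variation (intercept-only model) came from edgeR 4.0.16 (R 4.3.3) and the remaining values from Python 3.11.15 with scipy 1.17.1. Records averaging 10 counts or more entered a chi-square homogeneity test for variation beyond counting noise, with expected counts from the TMM sizes and Benjamini-Hochberg adjustment at 0.05 over all tested records. The test was checked on simulated counts. It measures only whether libraries differ by more than counting noise. Record lengths were recovered from counts and RPKM. Loci were merged from overlapping members, and neighbours were loci at most 20 kb apart. Alternatives were other size factors (DESeq2 1.42.0), total counts, other minimums, leaving out each replicate, RPKM, members that overlap no record, and other distances. Depth was 8679171 to 9092389 counts, and intervals cover counting error only. No sequence is shown, since the reference used here held names only.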

Additional observations from a re-analysis of the deposited data

How the results depend on the processing

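Of the main results, 63 values stayed within their limits under the alternatives and 24 moved, and 21 values of single hormone records did not move. Among members that overlap no other record, 9 were detected in all libraries, 6 were silent, 6 reached 1 TPM, 4 varied beyond counting noise, the share was 0.0306% and the median difference of replicate 1 was 0.0703. With fewer than 5 counts taken as silent, 28 records were silent. At least 5 TPM was reached by 22. After seeing the data, the share was also computed without the most abundant record (0.0868%) and with P450 records named by function added (0.145%). The median level was 2.83 TPM over members detected in any library, 1.38 TPM over all members, 7.17 TPM over those of at least 1000 bp, and 3.14 in RPKM. For the hormone records it was 4.80 in RPKM and 4.72 in CPM, and 6.41 to 7.55 TPM when a replicate was left out. With a mean count of at least 50, 13 of 22 records tested varied (59.1%, against 63.8% of all records tested). Leaving out a replicate gave 8 to 15, all among the 20, or 20.5%, 38.5% and 32.4% without replicates 1, 2 and 3, against 29.0%, 45.0% and 38.6% of all records tested. A library 1.5-fold apart was found in 2 records, and 2-fold apart in 4 at a mean CPM of at least 1. The median coefficient of variation was 0.185 to 0.320 without a replicate. The cause of these shifts was not tested.

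No paired analysis was possible because the 3 libraries form 1 group. Silent records could not be restricted to those of at least 1000 bp, since their lengths could not be recovered from counts. Depth limits the records under about 0.354 CPM.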

Other observations

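P450 enzymes described by their function rather than by a CYP name fell outside the rule. A list of such names, made after seeing the data, found 17 records, of which 13 were detected in all libraries, 2 were silent and 9 reached 1 TPM. Of these 17, 9 were called methyl farnesoate epoxidase, which in insects (CYP15) makes juvenile hormone from methyl farnesoate. The most abundant, Dapma7bEVm007241sc01036NoSplit, had 906, 1141 and 1311 counts in replicates 1, 2 and 3 and 73.8 ± 10.6 TPM, a level between those of the second and the third P450 record above. The others of that name had at most 4.72 TPM. A record called ecdysone 20-monooxygenase, the name of the CYP314A1 enzyme that completes the moulting hormone, Dapma7bEVm010135sc00677Split02, had 229, 267 and 363 counts and 20.6 ± 3.95 TPM, and the other 2 records of that name were silent. Lanosterol 14-alpha demethylase (Dapma7bEVm001880sc00687NoSplit) had 14.8 TPM and the record called aromatase (Dapma7bEVm018520sc01725NoSplit) 4.18 TPM. Of 10 tested, 5 varied beyond counting noise, against 54.5% of all records.

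A further 4 records carried the heme-binding, iron-binding and paired-donor oxidoreductase terms that 64 of the 74 P450 records share, without a P450 name. One of them, Dapma7bEVm018499sc00687NoSplit, called only an uncharacterized protein, had 289, 245 and 285 counts and 30.1 TPM, and lay 754 bp from the nearly silent record called 4V2 (1, 2 and 4 counts). Another of the same description, Dapma7bEVm029204sc00687NoSplit at 2.27 TPM, overlapped it on the opposite strand. The others were described as reelin (0.154 TPM) and as a mitochondrial NAD(P) transhydrogenase without counts. The terms alone thus do not establish that a record is a P450. The aromatase record lay 383 bp from a record called 26C1 at 0.316 TPM. On scaffold02452 a group of epoxidase records lay within 20 kb of the split 305a1 model. Of the 21 records found by function or by these terms, 10 lay within 20 kb of a P450 record. Several of the 10 overlap each other, on scaffold02452 and on scaffold00687, and are not separate loci. The same share over all records was not computed, so this count is not a result about P450.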
